A study of Mus musculus with 54 samples.

Results

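The genes described here encode signals of the activin, TGF-beta and BMP family and the proteins that carry or restrain those signals inside and outside the cell. They are Inhba, Inhbb, Fst, Bmp4, Tgfb1, Tgfb2, Tgfb3, Smad3 and Smad7. Members were the array probes whose annotated symbol was one of these names, which gave 9 genes and 10 probes out of 16637 named genes and 29922 probes. Tgfb2 had 2 probes and each other gene had 1. The samples were 3T3-L1 cells, an established mouse preadipocyte line from ATCC that forms fat cells in culture. One arm received 2 µM prieurianin (a limonoid, a class of plant compound), another received 0.5% DMSO (the solvent), and the third was left untreated and differentiated normally. Each arm was sampled at 18 times between 0 and 288 h, each with a single array, which made 54 arrays. The labels do not say whether the prieurianin cells also carried DMSO, whether each time was a separate culture, or when differentiation was started relative to 0 h. RNA was amplified, coupled to the Cy5 dye and hybridised to the Mouse OneArray, a single-colour oligonucleotide array.

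Ligands of this family bind paired serine-threonine kinase receptors, which phosphorylate receptor Smad proteins: Smad3 and its close relative for activins and TGF-betas, and another set for BMPs. The phosphorylated Smads join Smad4, enter the nucleus and change transcription, and inhibitory Smads such as Smad7 shut the receptors off again. In preadipocytes, TGF-beta and activin signals are known to hold back fat cell formation and to favour contractile and matrix genes, whereas BMP4 is known to commit precursor cells to the fat lineage.

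Values below are intensities in array units after quantile normalisation between arrays. Differences between arms are between log2(value + 16) levels, so those of dim genes come out too small, and ± after a log2 difference is its standard error from the limma fit. Arms were matched by time, and times were grouped into an early window of 5 times (0.25 to 3 h), a middle window of 7 (5 to 48 h) and a late window of 5 (96 to 288 h). Replicate arrays are replaced by the times of a window. The p-values of arm differences rest on a residual spread of each gene that is shared by all arms and windows. It is not the spread of a single difference within its own window. The residual spread between times may be technical in part, and neighbouring times are not independent. A gene was called when its limma p-value, adjusted over 12792 genes, was below 0.05, and rose or fell then means higher or lower than the other arm at matched times. The number of arrays limits the precision. The cell culture is measured in bulk, so fewer cells of a type and less RNA per cell cannot be told apart.

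Of the 11 adipocyte markers, 10 had a probe, and all 10 rose over the course in each arm. Of all genes, 30.4% in prieurianin, 32.6% in DMSO and 34.3% in untreated cells were called over the course, in either direction. All 8 preadipocyte and fibroblast markers were above the filter on dim genes. Of markers of other cells, 3 of 5 for macrophages (Cd68, Csf1r and Lyz2), 2 of 4 for epithelium (Krt8 and Krt18), 1 of 4 for endothelium (Pecam1) and 2 of 5 for skeletal muscle (Myog and Des) were above it. The macrophage genes Adgre1 and Ptprc, the epithelial genes Cdh1 and Epcam, the endothelial genes Cdh5, Kdr and Tek, and the muscle genes Myod1, Ckm and Myh3 were below it. The prieurianin array at 192 h stood apart from its arm: across genes it correlated best with the 144 h array of untreated cells (r = 0.971), and it carried the highest summed adipocyte marker level of the late prieurianin arrays. Differences of the members from prieurianin cells at 96 to 288 h are therefore given with and without the arrays of that time, and those of other pathway genes named with values at least where it changed a call or moved a called value by over 1.5 times. The change of the adipocyte markers over the course was not tested without 192 h. Their summed level in prieurianin cells was 29200 to 38300 at 0.25 to 3 h, and 55800 to 109000 at 96 to 288 h without 192 h.

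Against DMSO, 3 of the 8 tested members differed at 5 to 48 h: Inhba and Tgfb2 rose and Smad3 fell, where 11.1% of all genes were called. In the late window the same comparison called 3 of 8, again Inhba and Tgfb2 higher and Smad3 lower, beside 16.7% of all genes. Without 192 h the late count was 4 of 8, with Inhbb added, beside 25.8% of all genes. At 0.25 to 3 h none of the 8 was called by limma; 0% of all genes were, and 300 genes had an unadjusted p below 0.05. The median difference of the tested members was 0.26 in each later window, against -0.01 and 0.02 for all genes tested. The members and the pathway lists below were chosen with earlier results of these data known. Their counts and medians beside those of all genes are therefore descriptions.

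Inhba encodes the beta A subunit, whose dimer is activin A. At 5 to 48 h Inhba ran from 528 to 6678 in prieurianin cells, with a median of 2021. In DMSO cells at those times it ran from 167 to 807 with a median of 287, and in untreated cells from 230 to 1020 with a median of 326. At every one of the 7 times the prieurianin array was the highest of the 3, although the ranges of the arms overlap. In the first hours Inhba was highest at 2241 at 3 h in prieurianin cells, 1511 at 2 h in DMSO cells and 1597 at 2 h in untreated cells. By 9 h it was down to 346 in DMSO cells and 342 in untreated cells. Prieurianin cells instead reached 3235 at 9 h, 6678 by 12 h and 6632 by 15 h, before 714 was measured at 24 h.

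Inhba was 6.95-fold higher in prieurianin than in DMSO cells at 5 to 48 h (log2 2.80 ± 0.35, limma adjusted p = 1.2e-06, higher at 7 of 7 times). The differences at single times ran from 1.31 at 5 h to 4.45 at 15 h on the log2 scale. Against untreated cells Inhba was 5.48-fold higher (2.46 ± 0.35, limma adjusted p = 3.5e-06, 7 of 7 times). These comparisons share the prieurianin arrays and are not independent of each other. DMSO minus untreated was -0.34 ± 0.35, which was not called (limma adjusted p = 0.53), although it was with only these 2 arms in the fit (adjusted p = 0.016).

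The gap between prieurianin and DMSO cells in Inhba was wider at 5 to 48 h than at 0.25 to 3 h by 2.70 ± 0.54 (limma adjusted p = 0.007), a test that called 0.664% of all genes. Against untreated cells the same change was 2.24 ± 0.54, which was not called (limma adjusted p = 0.054; 0.43% of all genes were). From 5 to 48 h to 96 to 288 h the gap to DMSO changed by -1.47 ± 0.54 and that to untreated cells by -1.07 ± 0.54, neither of them called (limma adjusted p = 0.092 and 0.27), in tests that called 6.74% and 5.78% of genes. These changes were not tested without 192 h, where the late gaps were 1.91 and 1.88 against 1.32 and 1.38 with it.

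At 96, 144, 192, 240 and 288 h, Inhba measured 425, 1011, 108, 2136 and 2075 in prieurianin cells. In DMSO cells the same times gave 227, 327, 237, 209 and 529, and in untreated cells 208, 276, 176, 278 and 554. The prieurianin array was the highest of the 3 at each time except 192 h, where it was the lowest. The difference from DMSO was 1.32 ± 0.42 (2.5-fold, limma adjusted p = 0.026, higher at 4 of 5 times), and without 192 h it was 1.91 (adjusted p = 0.00059). The limma call was lost without 144 h (1.26, adjusted p = 0.074), without 240 h (0.84, adjusted p = 0.25) or without 288 h (1.17, adjusted p = 0.15). Against untreated cells it was 1.38 ± 0.42 (2.61-fold, limma adjusted p = 0.015, 4 of 5 times), 1.88 without 192 h (adjusted p = 0.00059), and not called without 144 h (1.27, adjusted p = 0.065), 240 h (1.01, adjusted p = 0.12) or 288 h (1.26, adjusted p = 0.069).

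**Figure D1:**
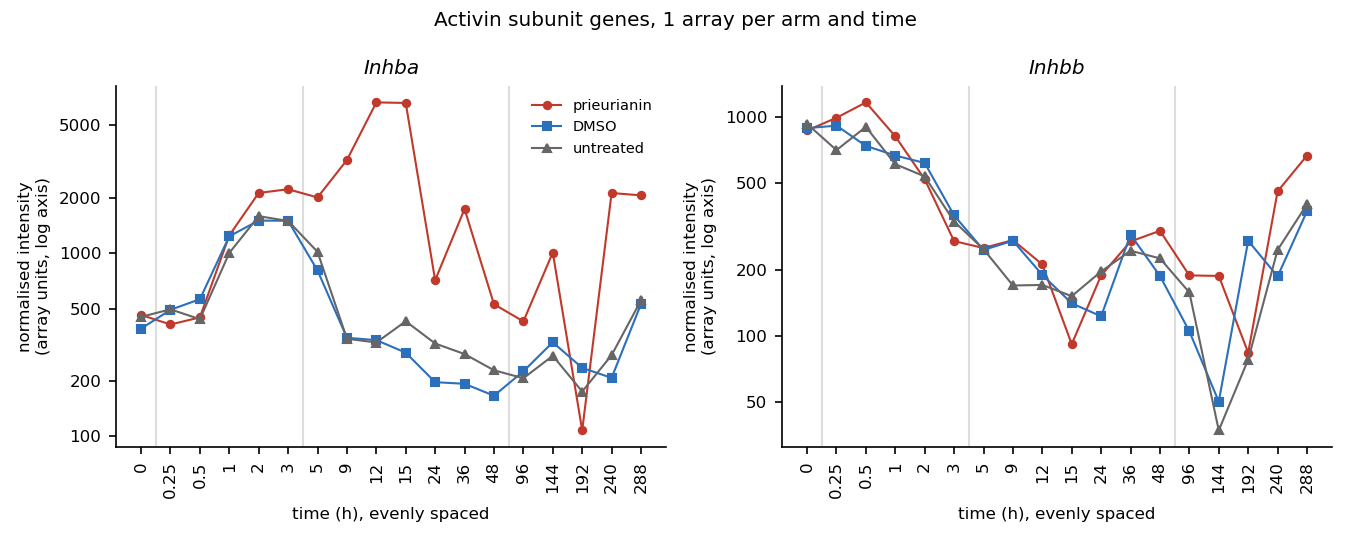
Normalised intensity of Inhba (left) and Inhbb (right) on log axes against time in hours, evenly spaced, with 1 point per array and grey lines between the 3 windows and after 0 h. The prieurianin arm reaches 6678 for Inhba at 12 h while DMSO cells lie at 336 and untreated cells at 326 then, and the 3 arms of Inhbb overlap until 48 h.

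Inhbb encodes the beta B subunit, which forms activin B. It was highest in the first hour and then declined in all arms, as Inhba did after its early peak in DMSO and untreated cells. At 288 h Inhbb was above its 144 h value in each arm. The arms overlapped at 5 to 48 h. In that window Inhbb ran from 91.8 to 302 in prieurianin cells (median 252), from 123 to 290 in DMSO cells (median 190) and from 152 to 249 in untreated cells (median 197). Prieurianin minus DMSO was 0.11 ± 0.22 at 5 to 48 h (limma adjusted p = 0.82, not called).

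In the late window Inhbb separated from the other arms at 4 of 5 times against DMSO. At 96, 144, 192, 240 and 288 h it measured 189, 188, 83.9, 457 and 666 in prieurianin cells. The DMSO values were 105, 50.2, 272, 187 and 371, and the untreated values were 158, 37.1, 78.1, 247 and 399. Only the 192 h array of the prieurianin arm lay below its DMSO partner. The difference from DMSO was 0.58 ± 0.26 (limma adjusted p = 0.13, not called) and 1.10 without 192 h (adjusted p = 9.8e-05). Against untreated cells Inhbb was 1.7-fold higher (0.76 ± 0.26, limma adjusted p = 0.031, 5 of 5 times), and 0.93 on the log2 scale without 192 h (adjusted p = 0.00061). That limma call was lost without 144 h (0.47, adjusted p = 0.25), 240 h (0.74, adjusted p = 0.085) or 288 h (0.78, adjusted p = 0.072).

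Fst encodes follistatin, the secreted protein that binds and neutralises activins. Its probe read between -6 and 9 deposited units with a median of 1, was below 0 on 19 arrays, and stood at the 0.3 percentile of named probes. It did not pass the filter on dim genes, so Fst is described only as not above background in all 3 arms.

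Tgfb2 encodes one of the TGF-beta ligands, which are secreted in a latent complex. At 5 to 48 h its brighter probe ran from 172 to 387 in prieurianin cells (median 338), from 89.5 to 231 in DMSO cells (median 191) and from 226 to 401 in untreated cells (median 290). Prieurianin cells lay above DMSO cells at all 7 times, and untreated cells did so too. The difference from DMSO was 1.67-fold (0.74 ± 0.16, limma adjusted p = 0.0023, higher at 7 of 7 times). DMSO minus untreated was -0.74 ± 0.16 (limma adjusted p = 0.001, lower at 7 of 7 times), and prieurianin minus untreated was -0.01 ± 0.16 (adjusted p = 0.98). In this window, then, the DMSO arm was the low one for Tgfb2, and the 2 comparisons with DMSO share its arrays.

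The dimmer Tgfb2 probe ran from 65.5 to 135 in prieurianin cells, 51.4 to 102 in DMSO cells and 71.4 to 111 in untreated cells at 5 to 48 h. Its prieurianin minus DMSO difference was 0.43 ± 0.13 (1.34-fold, limma adjusted p = 0.047 over all 21020 named probes, of which 7% were called). It was higher at 7 of 7 times. Its DMSO minus untreated difference of -0.29 ± 0.13 was not called (limma adjusted p = 0.14).

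At 96, 144, 192, 240 and 288 h the brighter Tgfb2 probe gave 429, 573, 214, 390 and 408 in prieurianin cells. DMSO cells gave 265, 279, 165, 222 and 291, and untreated cells 207, 261, 266, 303 and 388. The prieurianin value was above the DMSO value at each of the 5 times and below the untreated value at 192 h alone. Tgfb2 was 1.57-fold higher than in DMSO cells (0.65 ± 0.19, limma adjusted p = 0.017, 5 of 5 times), and without 192 h the log2 difference was 0.73 (adjusted p = 0.0081). The call did not hold without 144 h (0.56, adjusted p = 0.067) or 240 h (0.62, adjusted p = 0.077). Prieurianin minus untreated was 0.44 ± 0.19 (limma adjusted p = 0.093) and 0.63 without 192 h (adjusted p = 0.02). The dimmer probe gave 0.26 ± 0.16 against DMSO (limma adjusted p = 0.33), higher at 5 of 5 times.

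Tgfb1, the most widely expressed TGF-beta ligand, was lower in DMSO than in untreated cells at 5 to 48 h. It ran from 475 to 711 in DMSO cells (median 550) and from 723 to 876 in untreated cells (median 806), and these ranges do not overlap. The difference was 1.36-fold (-0.44 ± 0.10, limma adjusted p = 0.0022, lower at 7 of 7 times). Prieurianin cells ran from 517 to 995 (median 706) and overlapped both other arms. Prieurianin minus DMSO was 0.27 ± 0.10 (limma adjusted p = 0.085, not called), and it was called without 5 h (0.36, adjusted p = 0.025) or 48 h (0.32, adjusted p = 0.046).

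In the first hours Tgfb1 was also lower in prieurianin than in untreated cells. From 0.25 to 3 h it measured 690, 469, 641, 752 and 699 in prieurianin cells, against 905, 760, 745, 954 and 966 in untreated cells. The difference was -0.41 ± 0.12 (1.33-fold lower, limma adjusted p = 0.034, 5 of 5 times), and leaving out any 1 of these times lost the call (adjusted p between 0.054 and 0.15). DMSO minus untreated was then -0.21 ± 0.12 (limma adjusted p = 0.44, lower at 5 of 5 times), and prieurianin minus DMSO was -0.20 ± 0.12. Neither was called, so no early difference of prieurianin from DMSO cells is shown for Tgfb1. In the late window Tgfb1 was 670, 786, 737, 1305 and 1638 in prieurianin cells, 714, 828, 1129, 1486 and 1387 in DMSO cells and 834, 1156, 1141, 1652 and 1675 in untreated cells. Prieurianin minus untreated was -0.37 ± 0.12 (limma adjusted p = 0.026, lower at 5 of 5 times). That call was lost without 96 h (-0.38, adjusted p = 0.05), 144 h (-0.32, adjusted p = 0.11), 192 h (-0.31, adjusted p = 0.078) or 240 h (-0.38, adjusted p = 0.068). Prieurianin minus DMSO was -0.14 ± 0.12 (limma adjusted p = 0.46), and -0.03 without 192 h (adjusted p = 0.91).

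Tgfb3, the remaining TGF-beta ligand gene, was not called between arms in any window. At 5 to 48 h it ran from 529 to 1433 in prieurianin cells (median 724), from 373 to 826 in DMSO cells (median 656) and from 388 to 1023 in untreated cells (median 768). Its prieurianin minus DMSO difference was 0.31 ± 0.16 (limma adjusted p = 0.22), with the largest values at 15 h (1.10) and 24 h (0.93). At 96 to 288 h it was -0.04 ± 0.18 against DMSO (limma adjusted p = 0.92) and -0.05 ± 0.18 against untreated cells (0.89), and without 192 h -0.26 and -0.18 (adjusted p = 0.35 and 0.54).

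Bmp4, the BMP ligand of the set, was dim and was not called between arms when all times were in the fit. At 5 to 48 h it ran from 116 to 206 in prieurianin cells (median 142), from 119 to 339 in DMSO cells (median 143) and from 93.8 to 165 in untreated cells (median 133). The 339 was the DMSO array at 24 h, well above the rest of its arm. Late, Bmp4 was 171, 128, 89.9, 108 and 206 in prieurianin cells, 111, 91, 119, 92.3 and 115 in DMSO cells and 101, 93.2, 88.6, 102 and 82.1 in untreated cells. Prieurianin minus DMSO was 0.32 ± 0.20 (limma adjusted p = 0.3), and 0.48 without 192 h (adjusted p = 0.1). Prieurianin minus untreated was 0.47 ± 0.20 (limma adjusted p = 0.094), and 0.58 without 192 h (adjusted p = 0.046).

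**Figure D2:**
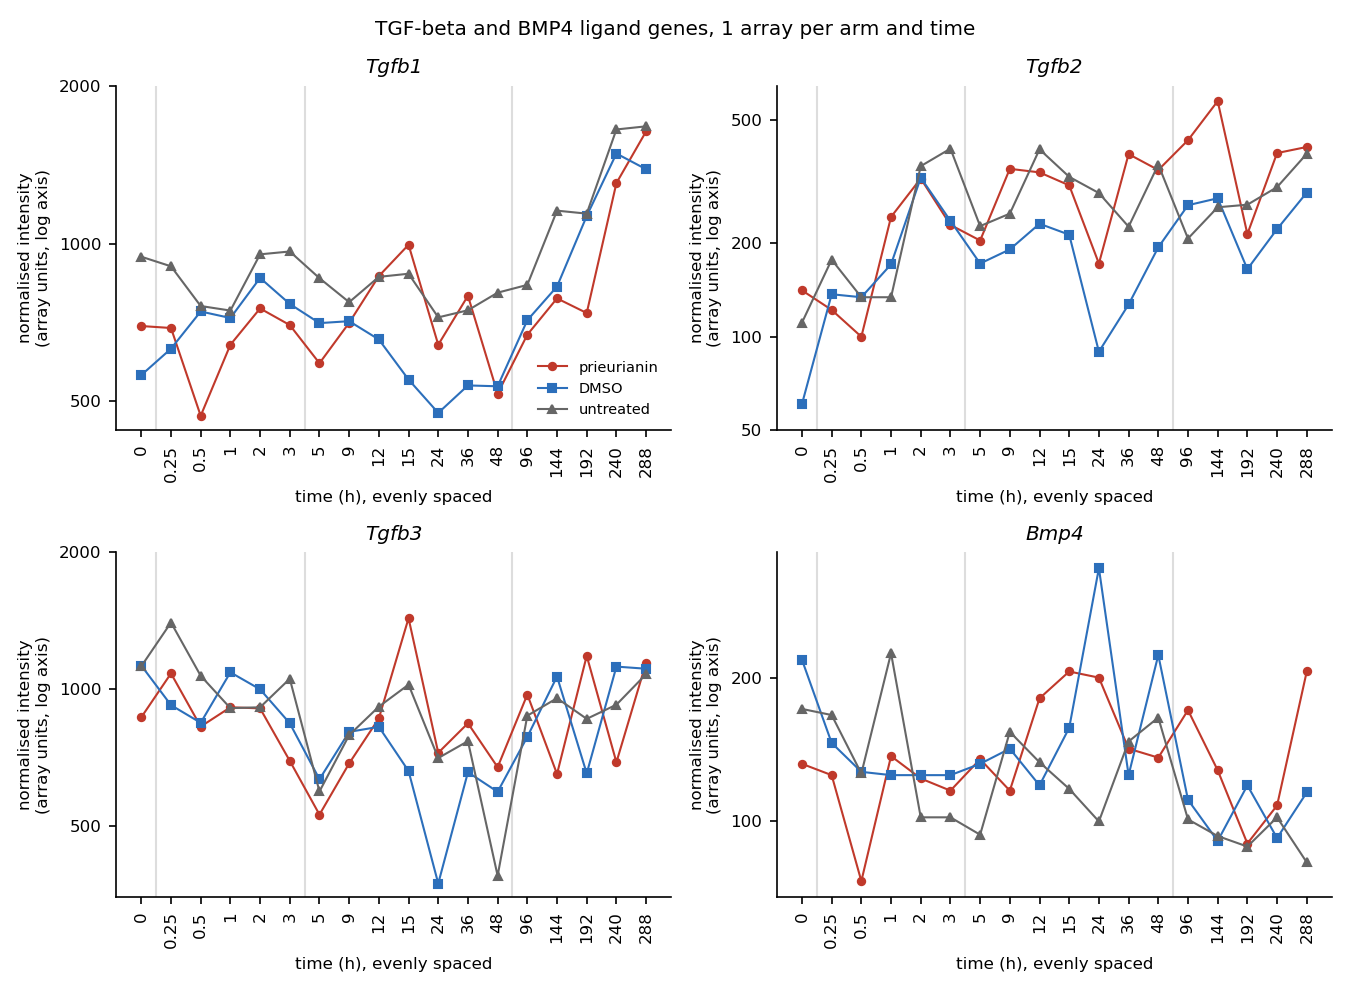
Normalised intensity of Tgfb1, Tgfb2 (brighter probe), Tgfb3 and Bmp4 on log axes against time in hours, evenly spaced, with 1 point per array and grey lines between the windows and after 0 h. The DMSO arm is the lowest for Tgfb2 at all 7 times from 5 to 48 h, and Tgfb1 lies between 1387 and 1675 at 288 h.

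Smad3 encodes the receptor Smad of the activin and TGF-beta branch. At 5 to 48 h it ran from 1748 to 2181 in prieurianin cells (median 1872) and from 2340 to 3077 in DMSO cells (median 2549), without overlap. In untreated cells it ran from 1786 to 2238 (median 1951), overlapping the prieurianin arm and lying below every DMSO array. Smad3 was 1.37-fold lower in prieurianin than in DMSO cells (-0.45 ± 0.08, limma adjusted p = 0.00046, lower at 7 of 7 times). DMSO minus untreated was 0.40 ± 0.08 (limma adjusted p = 0.00074, higher at 7 of 7 times), and prieurianin minus untreated was -0.05 ± 0.08 (adjusted p = 0.69). As with Tgfb2, the DMSO arm was the one apart. With median centring in place of quantile normalisation the differences kept their direction and were not called: -0.33 for prieurianin minus DMSO (limma adjusted p = 0.24) and 0.15 for DMSO minus untreated (adjusted p = 0.47). With values as deposited DMSO minus untreated was 0.29 (adjusted p = 0.075).

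From 96 to 288 h Smad3 was 1435, 1316, 1849, 1329 and 1514 in prieurianin cells. DMSO cells gave 1931, 2017, 2222, 1564 and 1683, and untreated cells 2114, 1712, 1524, 1703 and 1717. Every prieurianin array was below its DMSO partner, and 4 of 5 were below their untreated partner. Prieurianin minus DMSO was -0.34 ± 0.10 (1.26-fold lower, limma adjusted p = 0.018), lost without 144 h (-0.27, adjusted p = 0.11) and at -0.35 without 192 h (adjusted p = 0.0066). Prieurianin minus untreated was -0.24 ± 0.10 (limma adjusted p = 0.085), and -0.37 without 192 h (adjusted p = 0.0045).

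Smad7, the inhibitory Smad that blocks the receptors and is itself induced by TGF-beta, separated untreated cells from both other arms within hours. At 0.25, 0.5, 1, 2 and 3 h it measured 153, 228, 398, 342 and 463 in prieurianin cells and 220, 186, 360, 387 and 471 in DMSO cells. Untreated cells gave 67.4, 167, 113, 142 and 123. All 5 DMSO arrays lay above all 5 untreated arrays, and prieurianin cells overlapped DMSO cells throughout. Before that, at 0 h, Smad7 was 110 in prieurianin, 173 in DMSO and 223 in untreated cells.

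DMSO minus untreated for Smad7 was 1.27 ± 0.26 at 0.25 to 3 h (2.41-fold, limma adjusted p = 0.004, 5 of 5 times), lost without 0.25 h (1.21, adjusted p = 0.05) or 3 h (1.14, adjusted p = 0.061). Prieurianin minus untreated was 1.22 ± 0.26 (2.33-fold, limma adjusted p = 0.0039, 5 of 5 times), lost without 3 h (1.08, adjusted p = 0.055). Prieurianin minus DMSO was not called in any window.

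At 5 to 48 h Smad7 ran from 70.4 to 317 in prieurianin cells (median 151), from 59.8 to 354 in DMSO cells (median 125) and from 19.9 to 133 in untreated cells (median 47.3). The ranges overlap, but at each time untreated cells were the lowest. DMSO minus untreated was 1.04 ± 0.22 (limma adjusted p = 0.00086), and prieurianin minus untreated was 1.28 ± 0.22 (adjusted p = 5.1e-05), both higher at 7 of 7 times. From 96 to 288 h Smad7 was 44.5, 100, 34.7, 204 and 189 in prieurianin cells, 68.9, 74.8, 100, 68.2 and 85.2 in DMSO cells and 35.2, 40, 19.9, 28.1 and 87.2 in untreated cells. Prieurianin minus untreated was 1.02 ± 0.26 (limma adjusted p = 0.0047, 5 of 5 times), 1.15 without 192 h (adjusted p = 0.0012), and lost without 240 h (0.70, adjusted p = 0.077). The difference of prieurianin from DMSO cells was 0.21 ± 0.26 (limma adjusted p = 0.63), and 0.57 without 192 h (adjusted p = 0.11). DMSO minus untreated was 0.81 ± 0.26 (limma adjusted p = 0.085). It was 0.58 without 192 h (limma adjusted p = 0.29), and it was called without 288 h (1.01, adjusted p = 0.031) or with only these 2 arms in the fit (adjusted p = 0.046).

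**Figure D3:**
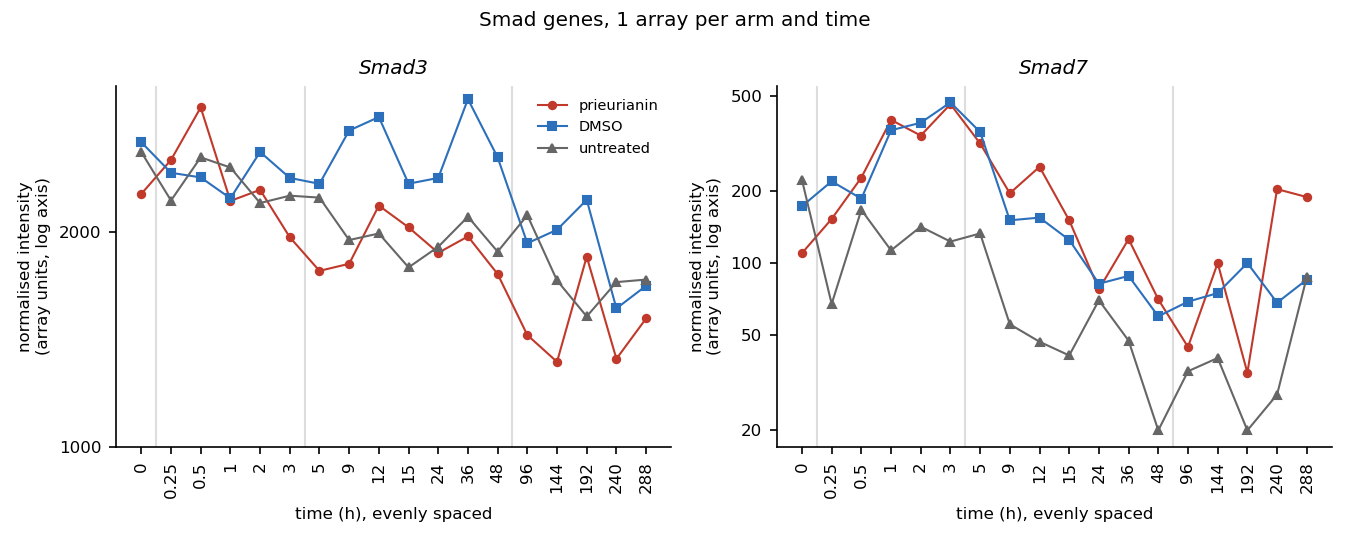
Normalised intensity of Smad3 (left) and Smad7 (right) on log axes against time in hours, evenly spaced, with 1 point per array and grey lines between the windows and after 0 h. All 7 DMSO arrays of Smad3 from 5 to 48 h lie above the other arms, and untreated cells are the lowest for Smad7 at every time from 0.25 to 48 h.

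Counted over the members, prieurianin minus untreated called 2 of 8 at 0.25 to 3 h (5.93% of all genes), 2 of 8 at 5 to 48 h (28.5%) and 4 of 8 at 96 to 288 h (22%), and 6 of 8 late without 192 h, beside 28.5% of all genes. DMSO minus untreated called 1 of 8 at 0.25 to 3 h (3.54%) and 4 of 8 at 5 to 48 h (20.3%). Late, limma called none of the 8 between DMSO and untreated cells (3.65%; 1904 genes had an unadjusted p below 0.05). The 4 members that differed between DMSO and untreated cells at 5 to 48 h were Smad3 and Smad7, which were higher with DMSO, and Tgfb1 and Tgfb2, which were lower.

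**Figure D4:**
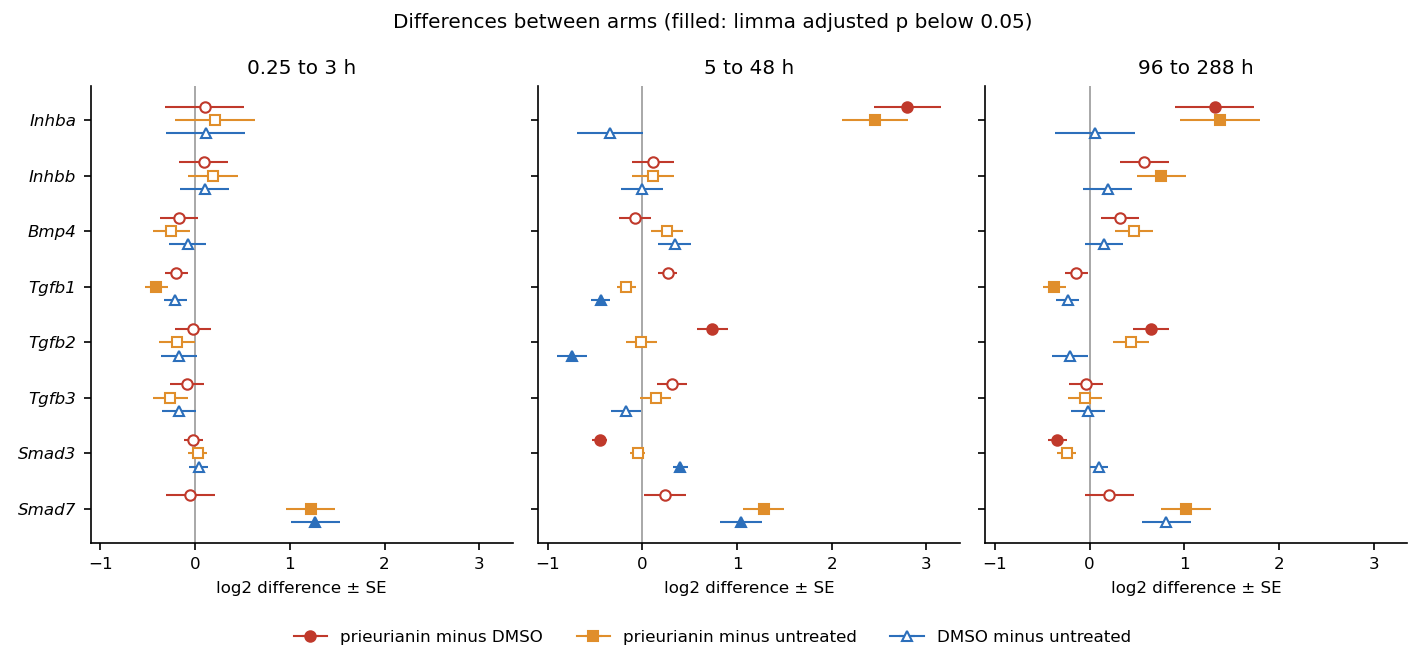
Log2 differences between arms with their standard errors for the 8 tested members in the 3 windows, all times included, with limma calls filled. Inhba stands at 2.80 and 2.46 in the middle window for prieurianin against DMSO and untreated cells, and Tgfb2 and Smad3 have opposite signs for prieurianin minus DMSO and DMSO minus untreated.

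Within each arm, the change over the course was taken as 96 to 288 h minus 0 to 3 h in a second limma fit. Inhbb fell by 1.42 ± 0.42 in prieurianin cells (limma adjusted p = 0.0074), by 1.93 ± 0.42 in DMSO cells (0.00028) and by 2.05 ± 0.42 in untreated cells (0.00011). Smad3 fell by 0.67 in prieurianin cells, 0.39 in DMSO cells and 0.44 in untreated cells, and all 3 changes were called. Smad7 fell by 1.28 in prieurianin cells, 1.64 in DMSO cells and 1.44 in untreated cells, likewise all called. Tgfb1 rose in each arm, by 0.56 in prieurianin cells, 0.58 in DMSO cells and 0.51 in untreated cells, and was called in all 3. These calls were lost without 0.5, 240 or 288 h in prieurianin cells (limma adjusted p between 0.067 and 0.12), without 240 h in DMSO cells (0.059), and without 0.5, 1, 240 or 288 h in untreated cells (0.059 to 0.095). Bmp4 fell by 0.54 ± 0.20 in untreated cells (limma adjusted p = 0.03), a call lost without 0, 0.25, 1, 144, 192 or 288 h (0.052 to 0.11), and was not called in the other arms. Tgfb2 rose by 1.04 ± 0.30 in prieurianin cells (limma adjusted p = 0.0062), and its changes of 0.55 in DMSO cells and 0.49 in untreated cells were not called (adjusted p = 0.16 and 0.22). The difference between these changes was not tested, and that in DMSO cells was called without 2 h (0.75, limma adjusted p = 0.042). Inhba changed by -0.26 ± 0.59 in prieurianin cells (limma adjusted p = 0.78), -1.47 ± 0.59 in DMSO cells (0.052) and -1.46 ± 0.59 in untreated cells (0.05), none of them called. Without 192 h these changes were 0.39 (limma adjusted p = 0.66), -1.40 (0.061) and -1.31 (0.084), also not called. The sign in prieurianin cells thus depended on that time. The Inhba change was called in DMSO cells without 0, 0.25, 5, 48 or 288 h (limma adjusted p between 0.033 and 0.047), and in untreated cells without 0, 0.25, 0.5, 5, 48 or 288 h (0.027 to 0.045). In all, 5 of 8 members were called in prieurianin cells (30.4% of all genes), 4 of 8 in DMSO cells (32.6%) and 5 of 8 in untreated cells (34.3%). Without 192 h, Inhbb and Smad7 were no longer called in prieurianin cells (-1.07, adjusted p = 0.052, and -1.01, adjusted p = 0.058). Smad7 was also lost there without 96 h (-1.07, adjusted p = 0.052). Smad3, Tgfb1 and Tgfb2 stayed called in prieurianin cells without 192 h (-0.75, 0.65 and 1.24, limma adjusted p = 1.1e-07, 0.012 and 0.0021).

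The promoter sequences of the members called against DMSO at 5 to 48 h are shown next as a description, with Inhbb as the other activin subunit. In that comparison Inhba and Tgfb2 rose, Smad3 fell and Inhbb was not called. For Tgfb2 and Smad3 the DMSO arm was the one apart. Whether the promoters bear on these differences was not tested. RefSeq promoter windows of 250 bases before to 50 bases after the annotated start, on GRCm38.p6, were matched for 6 of the 9 members. Each is written 5′ to 3′ on the strand of its gene, and capitals mark TATAAA, the TATA box core, and CAGAC, a Smad binding half-site. Inhba lies at chr13:16011601-16011900 (plus strand), Inhbb at chr1:119422199-119422498 (minus strand), Tgfb2 at chr1:186705940-186706239 (minus strand) and Smad3 at chr9:63757945-63758244 (minus strand).
Inhba: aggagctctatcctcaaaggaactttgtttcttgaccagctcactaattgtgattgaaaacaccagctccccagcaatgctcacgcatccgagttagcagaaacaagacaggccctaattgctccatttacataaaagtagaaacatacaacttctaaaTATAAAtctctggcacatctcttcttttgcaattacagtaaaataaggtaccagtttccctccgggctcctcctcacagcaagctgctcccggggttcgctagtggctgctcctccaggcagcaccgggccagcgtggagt
Inhbb: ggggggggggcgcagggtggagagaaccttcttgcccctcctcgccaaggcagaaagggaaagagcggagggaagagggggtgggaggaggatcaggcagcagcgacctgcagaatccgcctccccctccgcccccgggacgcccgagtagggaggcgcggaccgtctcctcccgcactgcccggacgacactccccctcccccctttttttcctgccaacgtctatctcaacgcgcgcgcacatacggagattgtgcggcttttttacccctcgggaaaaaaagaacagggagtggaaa
Tgfb2: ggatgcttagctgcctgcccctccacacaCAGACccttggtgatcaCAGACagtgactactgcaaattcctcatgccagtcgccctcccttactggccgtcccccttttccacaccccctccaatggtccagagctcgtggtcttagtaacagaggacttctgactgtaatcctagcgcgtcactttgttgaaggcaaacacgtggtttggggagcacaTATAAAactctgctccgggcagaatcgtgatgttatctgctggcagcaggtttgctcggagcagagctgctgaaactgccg
Smad3: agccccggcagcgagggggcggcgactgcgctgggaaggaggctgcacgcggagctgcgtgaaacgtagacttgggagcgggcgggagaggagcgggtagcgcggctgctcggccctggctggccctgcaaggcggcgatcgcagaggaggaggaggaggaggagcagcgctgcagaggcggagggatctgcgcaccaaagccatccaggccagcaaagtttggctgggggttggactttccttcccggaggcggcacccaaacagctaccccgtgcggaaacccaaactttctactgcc

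The Inhba window held TATAAA at positions -91 to -86 from the start and was 47.7% GC, against 64.3% for Inhbb, which had neither motif. The Tgfb2 window (54.3% GC) held TATAAA at -31 to -26 and CAGAC at -221 to -217 and at -204 to -200. The Smad3 window (67.7% GC) held neither. TATAAA was found on either strand in 13.6% of 32851 promoter windows of this length, and CAGAC in 49.6%. None of the 6 matched windows, the 2 for Bmp4 and Tgfb1 included, held the AP-1 motif TGANTCA (7.81% of windows), the CRE motif TGACGTCA (1.79%) or a CArG box (1.63%). A CArG box can hold TATAAA inside it, and no other motif searched holds another. A match is a run of letters and not a measured binding site.

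Other genes of the pathway were read from lists of 91 genes, of which 85 had a probe and 67 were tested. Against DMSO, 13 rose and 3 fell at 5 to 48 h, and 16 rose and 6 fell at 96 to 288 h (23 and 7 without 192 h). Their median differences were 0.08 and 0.14, against -0.01 and 0.02 for all genes tested. Of all genes tested, 6.62% were called higher and 4.51% lower at 5 to 48 h, and 7.32% higher and 9.36% lower at 96 to 288 h. Against untreated cells, 13 rose and 5 fell at 5 to 48 h (28.5% of all genes called), and 16 rose and 9 fell late (22%). In DMSO against untreated cells, 3 were higher and 7 lower at 5 to 48 h (20.3%). Differences of single pathway genes below are from DMSO, so where the DMSO arm was low they need not hold against untreated cells.

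Among 12 genes tested from the list of other ligands, none was called at 5 to 48 h. This list includes Bmp1, which encodes a protease that processes procollagen and BMP antagonists and is not a ligand. At 96 to 288 h Bmp1 rose by 0.80 ± 0.21 (limma adjusted p = 0.0085), and by 1.09 without 192 h. The stress-responsive ligand Gdf15 rose by 0.66 ± 0.23 (limma adjusted p = 0.048), and by 0.90 without 192 h. Among 12 receptors, Acvr1, a type I receptor for BMPs that also binds activins, rose in both windows. It ran from 5499 to 13740 in prieurianin cells, from 3517 to 5079 in DMSO cells and from 3698 to 5203 in untreated cells at 5 to 48 h, so the prieurianin arrays lay above all others. Acvr1 rose by 0.94 ± 0.14 there (limma adjusted p = 1.3e-05) and by 0.75 ± 0.16 at 96 to 288 h (0.0015). The activin type I receptor gene Acvr1b fell by 0.53 and the BMP type I receptor gene Bmpr1a by 0.52 at 96 to 288 h (limma adjusted p = 0.0029 and 0.0077).

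Of 5 other Smads tested, Smad1 of the BMP branch rose by 0.35 and the shared Smad4 by 0.31 at 5 to 48 h (limma adjusted p = 0.00098 and 0.0005), and both rose at 96 to 288 h. Medians at 5 to 48 h in prieurianin, DMSO and untreated cells were 2853, 2432 and 2393 for Smad1, and 8335, 6722 and 7789 for Smad4. Against untreated cells 1 of the 5 was called higher then, and 2 of the 5 were lower in DMSO than in untreated cells. The inhibitory Smad6 fell by 0.57 ± 0.14 against DMSO at 96 to 288 h (limma adjusted p = 0.0038), and by 0.36 without 192 h (adjusted p = 0.024). Among 15 inhibitors, with a median difference of 0.03, 4 rose and none fell at 5 to 48 h. They included the Smad-binding repressor Skil (1.19 ± 0.16, limma adjusted p = 6.6e-06), the corepressor Tgif1 (0.84 ± 0.15, 0.00026) and Pmepa1 (1.24 ± 0.31, 0.0084), whose product limits the activation of receptor Smads. Skil ran from 1285 to 5008 in prieurianin cells (median 2995) and from 740 to 1929 in DMSO cells (median 1120). The fourth, chosen for naming after its value was seen, was the ubiquitin ligase Smurf2 (0.40 ± 0.09, limma adjusted p = 0.0023). Its medians were 1430 in prieurianin, 1061 in DMSO and 1254 in untreated cells. Against untreated cells, 3 of the 15 inhibitors rose and none fell at 5 to 48 h. At 96 to 288 h, Tgif1 and the BMP antagonist Nbl1 rose by 0.74 and 0.54 (limma adjusted p = 0.0041 and 0.018), and Tgif1 by 1.08 without 192 h. Skil was then at 0.25 ± 0.19 (limma adjusted p = 0.43), and at 0.40 without 192 h (0.17).

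Of 7 genes for latent TGF-beta, Thbs1, whose product can activate it, rose by 1.29 ± 0.29 at 5 to 48 h and 1.50 ± 0.34 at 96 to 288 h (limma adjusted p = 0.0028 and 0.0025), and by 2.04 late without 192 h. The latent binding protein gene Ltbp2 fell by 0.55 and 0.56 (limma adjusted p = 0.017 and 0.033), and Ltbp1 rose late by 0.44 (0.039). Thbs1 medians at 5 to 48 h were 210 in prieurianin, 97.7 in DMSO and 183 in untreated cells. Of 9 TGF-beta and activin targets tested, 3 rose at 5 to 48 h (Ccn2, Tagln and Acta2), and 5 rose and 1 fell at 96 to 288 h. Their median differences were 0.48 and 0.42, against -0.01 and 0.02 for all genes tested. Ccn2 medians at 5 to 48 h were 633 in prieurianin, 62.2 in DMSO and 63.2 in untreated cells. Those of Tagln were 170, 101 and 56.8. Without 192 h the late count was 6 higher and none lower, where 25.8% of all genes were called in either direction. The median of the 9 was then 0.63, with Ccn2 at 6.01 and Tagln at 3.62 (limma adjusted p = 8.1e-12 for each). Tgfbi, an extracellular matrix gene, was then at -0.82 (limma adjusted p = 0.067), against -0.94 ± 0.29 with 192 h (0.023). The Acta2 probe was saturated on 6 of 7 prieurianin arrays at 5 to 48 h and 5 of 5 at 96 to 288 h, so its level there is a lower bound.

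Of 7 BMP targets tested, 2 rose and 2 fell at 5 to 48 h. The transcriptional inhibitor Id4 rose by 1.19 ± 0.17 (limma adjusted p = 7.1e-06) and by 2.20 ± 0.20 at 96 to 288 h (2.2e-09). Its relative Id2 rose by 1.07 ± 0.16 (limma adjusted p = 3e-05) and 0.69 ± 0.19 (0.013; 0.94 late without 192 h). Id1 went the other way, by -0.37 ± 0.11 (limma adjusted p = 0.031) and -0.70 ± 0.13 (0.00042), and Atoh8 fell by 0.61 at 5 to 48 h (0.04). Genes of the list thus moved in both directions.

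**Figure D5:**
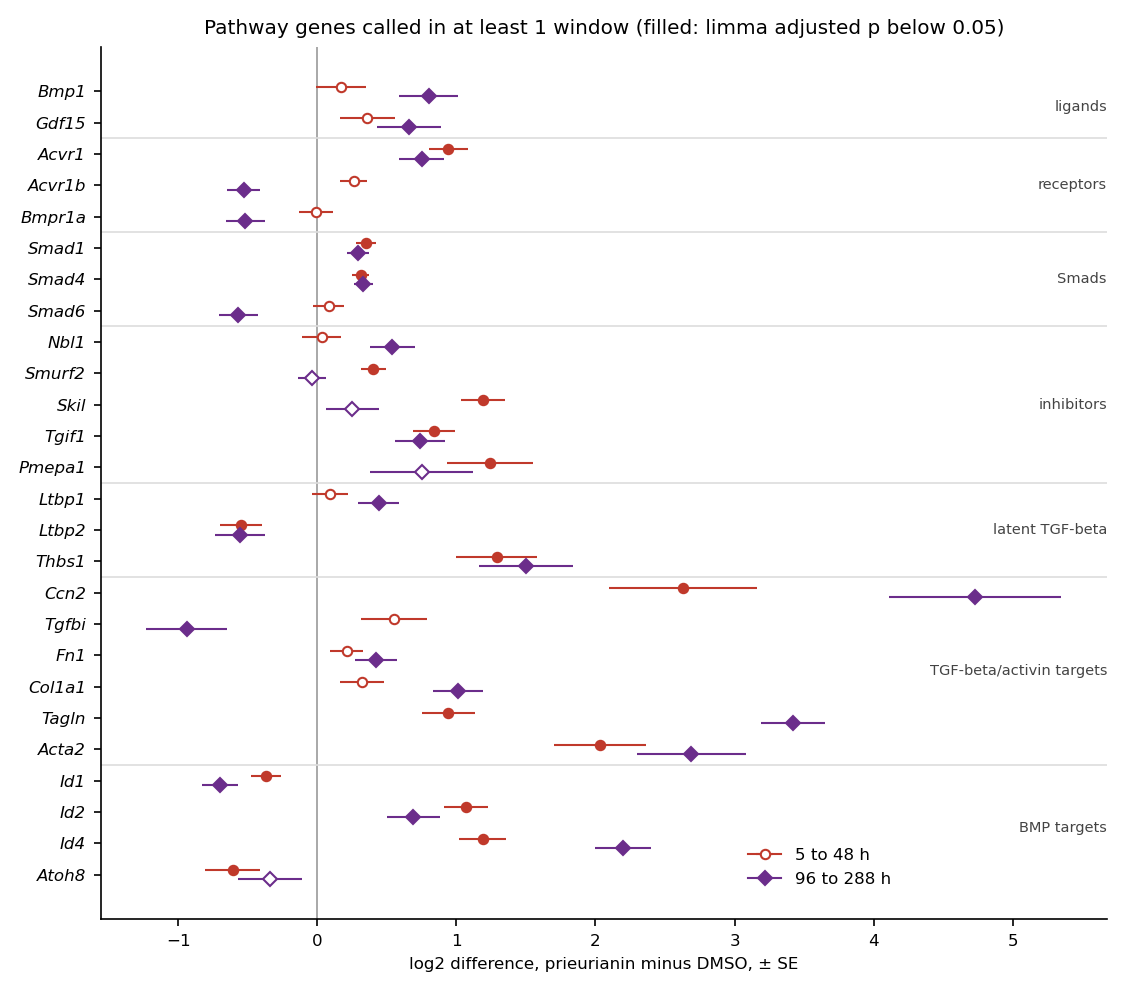
Log2 differences, prieurianin minus DMSO, with standard errors, for pathway genes called in at least 1 of the 2 later windows, grouped by list, all times included, with limma calls filled. The ligand list holds Bmp1, a protease gene. The 4 inhibitor genes called at 5 to 48 h lie on the positive side then, and the median of all 15 inhibitors tested was 0.03. Id1 and Id4 have opposite signs, and Acta2 was saturated on 6 of 7 and 5 of 5 prieurianin arrays of the 2 windows.

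Markers of contractile cells also differed between the arms, and 2 of them, Acta2 and Tagln, are among the targets above. The summed intensity of 6 smooth muscle and myofibroblast markers was 71300 to 106000 in prieurianin cells at 5 to 48 h, 7580 to 45100 in DMSO cells and 8370 to 68900 in untreated cells, and 4 of 6 rose against DMSO. Within this window the prieurianin sum was highest at 36 h and Inhba at 12 h, and over all windows the sum was highest at 96 h. Acta2 was saturated on 6 of 7 prieurianin arrays of this window, so the order of these peaks cannot be read. In the late window the sums were 79200 to 127000 in prieurianin cells, 2650 to 27000 in DMSO cells and 3130 to 27700 in untreated cells. The summed intensity of 10 adipocyte markers was then 55800 to 292000 in prieurianin cells, 172000 to 269000 in DMSO cells and 171000 to 261000 in untreated cells, and 9 of 10 fell against DMSO. The 292000 was the 192 h array, and without that time the sums were 55800 to 109000 in prieurianin cells, 172000 to 269000 in DMSO cells and 171000 to 256000 in untreated cells, and 10 of 10 fell. The late sums of 5 macrophage markers were 508 to 3580 in prieurianin cells, 576 to 1250 in DMSO cells and 649 to 1690 in untreated cells. Those of 4 epithelial markers were 170 to 3310 in prieurianin cells (170 to 834 without 192 h), 495 to 2790 in DMSO cells and 525 to 2170 in untreated cells. Saturated spots enter these sums at their value. The part of these cell markers in the differences of the members was not tested.

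Over the 54 arrays, the genes with the courses most like Inhba were Pdlim7, Schip1 and Pdgfa (Pearson r = 0.903, 0.892 and 0.882). Those most like Tgfb2 were Slc25a30, Trappc2 and Sgtb (0.83, 0.784 and 0.773), and those most like Smad3 were Ap4s1, Hnrnpa1 and Casd1 (0.769, 0.765 and 0.76). Among the members, Inhba and Smad7 had r = 0.68 and Inhba and Inhbb r = 0.27, while Tgfb2 and Smad3 had r = -0.68. These correlations share arrays, arms and the common course over time, and are descriptions.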

How the data were processed

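Expression was measured in 54 3T3-L1 samples on single-colour Cy5 arrays, 1 per arm and time. Per the labels' protocols, RNA was purified on RNeasy columns and amplified to amino allyl RNA. The deposited values were taken as linear probe intensities, judged from the values, which ran from -83 to 65497 with 0.47% below 0. The scanner, background correction and scaling are not given in the sources used here. Array medians ran from 88 to 313, and 93 to 176 probes per array were counted as saturated, at 50 units or less from the array maximum; no member probe was among them.

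Quantile normalisation was applied across arrays, values under 0 were raised to 0, and log2(value + 16) was used. Of 29922 probes, 21020 had 1 symbol in the platform annotation, 8902 had none and none had several; 17558 symbols were current in RefSeq's GRCm38.p6 gene table, 3410 were updated and 52 kept. Each gene was tested through its brightest probe. Genes with a mean log2 value above 6.07 (51.2 intensity units, the lower quartile) were kept, which left 12792. Arms were compared with limma 3.58.1 in R 4.3.3 on the arrays of the 17 times after 0 h, with time as a factor and an arm effect per window (28 residual degrees of freedom). Time matches the arms because the labels give each arm the same times. As a check, 42 of 51 same-time array pairs deviated together with r over 0.1 (range -0.2 to 0.8). Change over the course used all 54 arrays (45 residual degrees of freedom). P-values were adjusted by Benjamini-Hochberg over all genes tested. The fit of arm differences was tested on simulated data with independent noise and 1 spread per gene. That simulation cannot check the dependence between neighbouring times or a spread that differs between windows.

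The members, pathway lists and cell type markers were chosen with earlier results of these data known. Named genes were all members, at most 3 called pathway genes per list and direction by size of prieurianin minus DMSO at 5 to 48 h (then at 96 to 288 h), and the 3 genes most correlated with each member called there. Promoters came from RefSeq; those of Fst, Tgfb3 and Smad7 were not used here. Alternatives were other scalings, pseudocounts of 4 and 64, other filters and probe rules, other time terms, and leaving out each time. Pathway and marker values without 192 h were added after seeing the data.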

Additional observations from a re-analysis of the deposited data

Results flagged for a closer look

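The difference between prieurianin and DMSO cells in Inhba was larger at 5 to 48 h than at 0.25 to 3 h by 2.70 on the log2 scale (limma adjusted p = 0.007). Against untreated cells the same change was 2.24 and was not called (limma adjusted p = 0.054). In 72 sets of 1 member, arm and window, 5 single arrays lay far from the others of their set by Dixon's test. For independent values chance gives about 1 in 20. A set here holds successive times of a course, so that rate need not hold. The values of the 5 arrays and of their nearest neighbours are on the log2 scale. Inhba in untreated cells was 10.02 at 5 h, against 8.79 for the nearest. That array was the first of its set and came after the early Inhba peak described above. Inhbb in prieurianin cells was 6.75 at 15 h, against 7.68. Bmp4 was 6.51 in prieurianin cells at 0.5 h, against 7.05, and 7.34 in DMSO cells at 0.25 h, against 7.16. Tgfb3 in DMSO cells was 8.60 at 24 h, against 9.25. Their causes were not tested.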

How the results depend on the processing

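Of 2688 values of 96 member results under alternatives, 2577 stayed on their side of the threshold, 84 lost a call, 27 gained one and none of the called values reversed, while 43 uncalled values changed sign. Inhba, Smad7 and Tgfb2 kept their calls at 5 to 48 h in the alternatives that tested them, 29 each for Inhba and Tgfb2 and 28 for Smad7, which the filter at the median leaves out (Inhba against both arms, Smad7 against untreated cells in both treated arms, Tgfb2 between DMSO and untreated cells). Of 339 member counts under alternatives, 308 were within 1.5 times the reported count. Counts below are of 8 members. With median centring, prieurianin minus DMSO at 96 to 288 h called 1 (reported 3), and prieurianin minus untreated called 1 at 0.25 to 3 h (reported 2) and 2 at 96 to 288 h (reported 4). Calls over all genes also fell there. They went from 936 higher and 1197 lower to 309 and 501, from 532 and 227 to 189 and 13, and from 1462 and 1349 to 645 and 682. For the other settings below, all-gene shares are not given, so a lower count need not be particular to the members. With the filter at the median, prieurianin minus untreated called 1 at 0.25 to 3 h and 1 at 5 to 48 h (reported 2), and DMSO minus untreated called 0 at 0.25 to 3 h (reported 1); fewer members pass that filter. Without the replicate block (no time factor), 0 were called for prieurianin minus DMSO and prieurianin minus untreated at 96 to 288 h and for prieurianin minus untreated and DMSO minus untreated at 0.25 to 3 h, and Tgfb2 lost its call for prieurianin minus DMSO at 5 to 48 h (adjusted p = 0.092). With time as a random block, prieurianin minus untreated called 1 at 0.25 to 3 h and 2 at 96 to 288 h. With only the 2 arms compared, prieurianin minus untreated called 1 at 0.25 to 3 h and DMSO minus untreated called 1 at 96 to 288 h (reported 0). With each window by itself, prieurianin minus DMSO and prieurianin minus untreated called 0 at 96 to 288 h. The causes were not tested.

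Beside those named above, single members lost these calls outside the left-out times, with limma's adjusted p in parentheses. In prieurianin minus DMSO at 96 to 288 h, Inhba lost its call without the block (0.23), with a random block (0.057), with 2 arms (0.086) and by window (0.15); Tgfb2 with median centring (0.069), without the block (0.2) and by window (0.097); Smad3 with median centring (0.16), without the block (0.05) and by window (0.18). In prieurianin minus untreated there, Inhba lost its call in 3 settings (0.053 to 0.16), Inhbb in 5 (0.063 to 0.32), Tgfb1 in 4 (0.077 to 0.27) and Smad7 in 2 (0.086 and 0.095). At 0.25 to 3 h, Tgfb1 lost it in 4 (0.076 to 0.4), and Smad7 lost it without the block against untreated cells in prieurianin (0.1) and DMSO cells (0.11). Tgfb1 lost its DMSO minus untreated call at 5 to 48 h without the block (0.087). At 5 to 48 h, Smad3 lost its calls with median centring for prieurianin minus DMSO (0.24) and DMSO minus untreated (0.47), and with values as deposited for DMSO minus untreated (0.075). Of the changes over the course, Tgfb1 lost its call with values as deposited in all 3 arms (0.13 to 0.32) and with median centring in prieurianin (0.087) and untreated cells (0.091), Smad3 with median centring in DMSO cells (0.1), and Bmp4 with values as deposited in untreated cells (0.055). Calls gained outside the left-out times were Inhba and Smad7 with 2 arms for DMSO minus untreated, Smad3 with values as deposited for late prieurianin minus untreated (0.014), and the Inhba change over the course in DMSO cells (0.029 and 0.044) and untreated cells (0.024 to 0.049) in 2 and 3 settings.

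Leaving out each time in turn, the counts ran from 0 to 4 for prieurianin minus DMSO at 96 to 288 h, 0 to 2 (0.25 to 3 h) and 0 to 6 (96 to 288 h) for prieurianin minus untreated, 0 to 1 for DMSO minus untreated in both the early and the late window, and 3 to 5 and 3 to 6 for the course in prieurianin and untreated cells. The share of all genes called is given only late without 192 h, 25.8% for prieurianin against DMSO and 28.5% against untreated cells.

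Scaling moved the split of calls over all genes. For prieurianin minus DMSO at 5 to 48 h, 847 were higher and 577 lower, and with median centring 555 and 26. For DMSO minus untreated at 5 to 48 h, 1212 were higher and 1384 lower, and with median centring 539 and 2227, where the median of all genes was -0.18. With values as deposited, prieurianin minus untreated at 96 to 288 h gave 594 higher and 2217 lower (median -0.17), against 1462 and 1349. Dim probes (Bmp4, Smad7 and the dimmer Tgfb2 probe) are measured closest to the filter.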
